A study of Rattus norvegicus with 29 samples.

Results

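The miRNAs described are miR-223, miR-142 and miR-150, which circulate in plasma and are abundant in white blood cells and platelets. Members were all rows of the miRNA count table with one of these 3 stems, whichever arm of the hairpin they came from. This gave 6 of 754 rows, rno-miR-223-3p, rno-miR-223-5p, rno-miR-142-3p, rno-miR-142-5p, rno-miR-150-5p and rno-miR-150-3p, named below without the prefix for the rat. The samples were tail vein plasma of 29 adult male Sprague-Dawley rats, collected into K2 EDTA tubes under isoflurane 48 h after surgery at UEF (12 rats), Monash (8 rats) or UCLA (9 rats). The controls (10 rats) were sham-operated, with no pressure pulse applied to the brain. The other 19 rats had severe traumatic brain injury (TBI) by lateral fluid percussion. Video-EEG was recorded for 4 weeks in month 7 after injury, and injured rats are called TBI− where no epilepsy was found (10 rats, labelled TBIN) and TBI+ where it was (9 rats, labelled TBIE). UEF had 4 rats in each group, UCLA had 3 in each, and Monash had 3 sham, 3 TBI− and 2 TBI+ rats. Each rat gave 1 library. TBI+ and TBI− therefore name an outcome months after the blood was taken, not the state of the rat at sampling.

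A miRNA is cut from a hairpin precursor, and either arm (5p or 3p) can be loaded into an Argonaute protein, where bases 2 to 8, the seed, pair with target mRNAs. miR-223 is made in neutrophils, monocytes and megakaryocytes and is among the most abundant miRNAs of platelets, miR-142 is made in nearly all blood cell lineages, and miR-150 is a miRNA of mature B and T lymphocytes. Plasma holds these miRNAs in vesicles, in protein complexes and in cells or platelets left after centrifugation, and in such a sample the number of releasing cells and the amount released per cell cannot be told apart.

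RefSeq (build GRCr8) held mature sequences for 4 of the 6 members, and they are shown to say what each member is, with the seed in capitals. The counts themselves rest on the authors' own annotation with miRBase.

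miR-223-3p: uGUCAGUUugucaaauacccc

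miR-223-5p: cGUGUAUUugacaagcugaguug

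miR-142-3p: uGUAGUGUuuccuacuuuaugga

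miR-142-5p: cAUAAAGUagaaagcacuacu

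The 4 seeds differed from each other, and none was the seed of any other of 693 mature miRNA names compared. The hairpins are shown because they hold both counted arms of a member pair, here in capitals with the 5p arm first.

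Mir223 hairpin: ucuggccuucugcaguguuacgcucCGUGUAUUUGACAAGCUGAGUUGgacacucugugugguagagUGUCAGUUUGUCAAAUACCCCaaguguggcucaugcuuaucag

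Mir142 hairpin: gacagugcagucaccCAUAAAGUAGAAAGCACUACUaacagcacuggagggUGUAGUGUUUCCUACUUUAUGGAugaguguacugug

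On GRCr8, Mir223 lies at chrX:65151383-65151492 on the plus strand, within the span of the long non-coding RNA gene LOC120099372. Mir142 lies at chr10:73055104-73055190 on the plus strand and overlaps the span of Tspoap1, a protein-coding gene. Mir150 lies at chr1:104741487-104741571 and overlaps no other gene. The mature sequences of miR-150-5p and miR-150-3p are named only.

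All 6 members had at least 10 counts in each of the 29 rats, and all passed the filter on low counts that kept 751 miRNAs. Levels are CPM, counts scaled to a common library size with factors from the trimmed mean of M values (TMM). By mean CPM, miR-223-3p ranked 6 of 751 with 36324 ± 18610 CPM (SD, n = 29) and miR-150-5p ranked 7 with 34068 ± 11734. Their log2 ratio within a rat ran from −1.56 to 2.10 around a mean of 0.032 ± 0.85, so their order was not separated beyond the spread. miR-142-3p ranked 26 with 8049 ± 4047 CPM. The minor arms had overlapping levels, with 308 ± 103 CPM for miR-150-3p (rank 114), 243 ± 116 for miR-142-5p (rank 124) and 204 ± 103 for miR-223-5p, the lowest of the 6. Mature miRNAs are of similar length, but ligation efficiency differs between sequences, so these ranks are ranks of counts. Together the members held 1.76% to 13.7% of all miRNA counts in a rat (median 7.96%). Their SD over rats was 0.52 to 0.73 on the log2 CPM scale, beside a median SD of 0.63 over all 751 miRNAs.

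Within each hairpin 1 arm dominated in every rat. The count of miR-223-3p was 183 times that of miR-223-5p in the median rat (130 to 237 times), and miR-150-5p had 109 times the count of miR-150-3p (65.0 to 149 times). For miR-142, the 3p arm had 33.2 times the count of the 5p arm, from 16.1 to 73.2 times. The miR-142 pair therefore had the least unequal arms of the 3 hairpins.

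**Figure D1:**
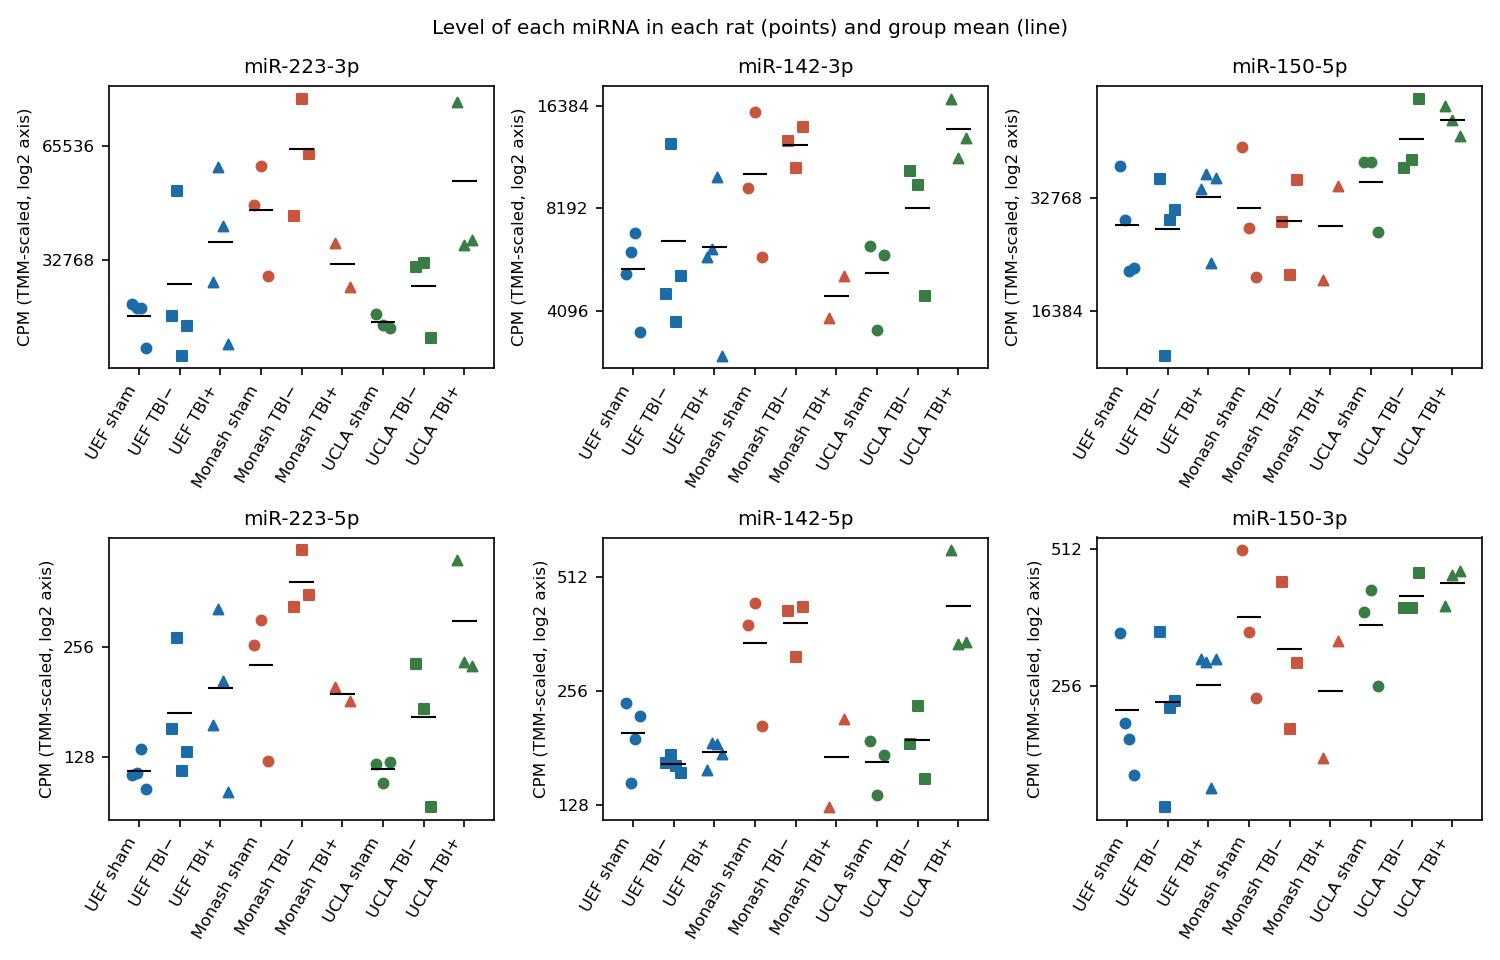
Level of each member in each rat on a log2 CPM axis (TMM-scaled), by site and outcome, with the group mean as a line (2 to 4 rats a group). The highest mean of miR-223-3p is that of Monash TBI− rats (64208 CPM) and the lowest that of UCLA sham rats (22432 CPM), and rats of most groups overlap.

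Libraries held 1162307 to 5223469 miRNA counts (median 2713557). Sham rat 3 of UEF stood apart, with 55.1% of its counts on miR-122-5p, a liver miRNA, and the lowest TMM factor, 0.33 against a median of 1.06. The median share of miR-122-5p was 14.2% in UEF rats, 9.20% in Monash rats and 1.55% in UCLA rats. Without sham rat 3 of UEF no member changed its side of the threshold in any comparison, and a sign turned in 3 differences close to 0, to −0.0036 for miR-150-3p after injury, 0.0043 for miR-150-5p between UEF and Monash, and 0.015 for miR-142-3p between TBI+ and TBI− rats. As a measure of red cell content, the log2 ratio of miR-451-5p to miR-23a-3p ran from −3.57 to −0.87, with a median of −2.90 in sham and −2.34 in injured rats. TBI− rat 2 of UEF had the highest value. The study measured miR-23a and miR-451 by qPCR in the sequenced samples and read their difference as no hemolysis. Its other measure was the light absorbance of the thawed and pooled plasma. This lay slightly above the study's limit in a sample each from Monash and UCLA but in none from UEF. The mean absorbance did not differ between the sites, per the study.

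The first comparison asked whether injury changed the plasma levels of these miRNAs at 48 h. Both arms of miR-223 were higher in injured rats by about the same amount, but neither passed the threshold over 751 miRNAs, where 9 miRNAs (1.2%) did. In sham rats miR-223-3p was 19248 CPM at the lowest, 24501 at the median and 58180 at the highest, and in injured rats 18343, 35968 and 87363. The range of the injured rats held the whole range of the sham rats. The log2 fold change was 0.51 (SE 0.23, 95% interval 0.04 to 0.98, edgeR adjusted p = 0.365). For miR-223-5p the sham values were 105, 124 and 302 CPM, and those of injured rats were 93.7, 207 and 467. Its log2 fold change was 0.68 (SE 0.22, interval 0.22 to 1.13, edgeR adjusted p = 0.139). The adjusted p of miR-223-5p was 0.069 to 0.805 over the alternative settings and 0.0544 to 0.261 with each rat left out.

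miR-142 and miR-150 showed smaller differences after injury. miR-142-3p had 3534, 6019 and 15680 CPM in sham rats (lowest, median, highest) and 3021, 9552 and 17162 in injured rats. Its log2 fold change was 0.36 (SE 0.27, interval −0.19 to 0.91, edgeR adjusted p = 0.708). The other members had log2 fold changes of 0.11 (SE 0.22) for miR-142-5p, 0.15 (SE 0.19) for miR-150-5p and 0.026 (SE 0.18) for miR-150-3p, with adjusted p from 0.862 to 0.973. The median log2 fold change was 0.025 over all 751 miRNAs, and the median absolute value was 0.20. Liver miRNAs differed with injury in the main run, with the largest differences at UEF. Of 6 on the list, 3 passed the threshold in edgeR, all lower in injured rats, beside 9 of 751 miRNAs (1.2%). These were miR-194-5p (log2 fold change −1.52, adjusted p = 0.0367), miR-122-5p (−1.65, adjusted p = 0.0379) and miR-802-5p (−0.80, adjusted p = 0.0486). All 6 had an unadjusted p under 0.05, and the median of the list was −1.43. The 3 calls were lost with the red cell ratio as a covariate, where 4 of 751 miRNAs passed and 0 were lower. With replicate number as a block only 1 miRNA of the 751 passed as lower in injured rats. Within UEF all 6 passed as lower, with a median of −2.64, beside 29 of 751 miRNAs (3.86%). The median of the list was −0.84 at Monash and 0.10 at UCLA. At each of these sites 0 of 6 passed in edgeR and 0 had an unadjusted p under 0.05. In the edgeR test of an injury effect differing between sites, 1 of the 6 passed, miR-194-5p (adjusted p = 0.0464). All 6 had an unadjusted p under 0.05 there. Without sham rat 3 of UEF, 0 of all miRNAs passed that test. The share of miR-122-5p had a median of 11.3% of counts in sham and 4.67% in injured rats, and its part in the member values was not tested.

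The 5 red cell miRNAs with a row had a median log2 fold change of 0.62 with injury, and none passed in edgeR (1 at an unadjusted p under 0.05). With the red cell ratio as a covariate the log2 fold change was 0.30 for miR-223-3p and 0.49 for miR-223-5p. It was −0.019 (SE 0.27) for miR-142-3p and −0.021 (SE 0.24) for miR-142-5p. The sign of both miR-142 arms thus turned, to values close to 0 beside their SE.

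Effects of injury were then taken within each site. miR-223-5p was higher in injured rats at all 3 sites, with log2 fold changes in the order UEF, Monash and UCLA of 0.64 (SE 0.35), 0.42 (SE 0.41) and 0.97 (SE 0.41), and miR-223-3p with 0.48 (SE 0.36), 0.20 (SE 0.42) and 0.85 (SE 0.42). In the same order miR-142-3p had 0.24 (SE 0.39), −0.14 (SE 0.46) and 1.07 (SE 0.47). For miR-142-5p the values were −0.22 (SE 0.31), −0.19 (SE 0.37) and 0.89 (SE 0.37). For all 6 members the highest of the 3 within-site values was that of UCLA. There the 3 sham rats had 3597, 5962 and 6319 CPM of miR-142-3p, and the 6 injured rats had 4511 at the lowest, 11021 at the median and 17162 at the highest. For miR-142-5p the UCLA sham rats had 136, 174 and 189 CPM and the injured rats 150, 287 and 602. Only 1 of the 6 injured rats lay within the sham range for miR-142-3p.

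No member passed within a site. The number of miRNAs past the threshold was 29 at UEF (3.86%), 0 at Monash (0%, with 56 at an unadjusted p under 0.05 in edgeR, and DESeq2 not run within sites) and 2 at UCLA (0.266%). The lowest adjusted p of a member was 0.354, for miR-142-5p at UCLA. The difference of the injury effect between sites passed for 8 of 751 miRNAs (1.07%) and for none of the members, whose lowest p was that of miR-142-5p (0.058, adjusted 0.372). The median log2 fold change of the 5 red cell miRNAs with a row was 0.96, −0.37 and 1.15 in UEF, Monash and UCLA rats. Its sign was that of miR-142-3p and both arms of miR-150 at every site. It was opposite to that of miR-142-5p at UEF (−0.22) and of miR-223-3p (0.20) and miR-223-5p (0.42) at Monash. The part of the red cell miRNAs in the member values was not tested within sites.

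**Figure D2:**
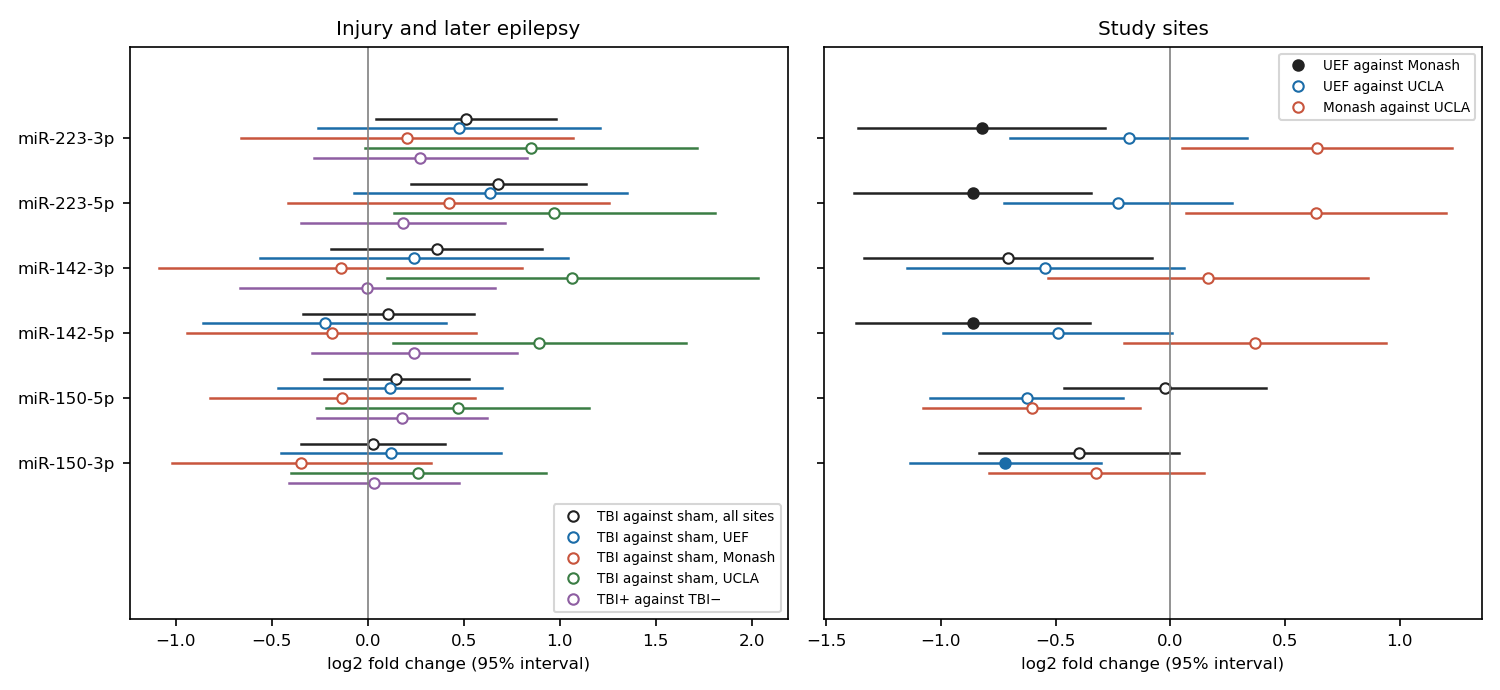
Log2 fold change of each member with its 95% interval for injury and later epilepsy (left panel) and for pairs of sites (right panel). Filled points have adjusted p under 0.05, which holds for miR-223-3p, miR-223-5p and miR-142-5p between UEF and Monash and for miR-150-3p between UEF and UCLA.

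The question the series was built for is whether plasma of injured rats differs between those that do and do not develop epilepsy. No member passed the test of TBI+ against TBI− rats. In edgeR 0 of 751 miRNAs passed (0%), with 18 at an unadjusted p under 0.05, and in DESeq2 0 passed, with 22. miR-223-3p was 18343, 31853 and 87363 CPM in TBI− rats (lowest, median, highest) and 19706, 36295 and 85536 in TBI+ rats. miR-150-5p was 12430, 33381 and 60017 CPM in TBI− rats and 19767, 36899 and 57377 in TBI+ rats. In both miRNAs each group spanned nearly the same range. The log2 fold change of TBI+ against TBI− was 0.27 (interval −0.28 to 0.83) for miR-223-3p, 0.19 (−0.35 to 0.72) for miR-223-5p and −0.0020 (−0.67 to 0.66) for miR-142-3p. It was 0.24 (−0.29 to 0.78) for miR-142-5p, 0.18 (−0.27 to 0.62) for miR-150-5p and 0.032 (−0.41 to 0.47) for miR-150-3p, and the adjusted p was 0.998 for each. The intervals do not exclude differences of up to 0.83 on the log2 scale in the direction of more miRNA in TBI+ rats.

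Study site was the factor by which members passed the threshold. Per the study, the source of the rats and their food pellets differed between the sites. Analgesia was buprenorphine at UEF and Monash and flunixin at UCLA, where the chow after injury also held an antibiotic. UEF and Monash also differed in time to centrifugation, housing before surgery, extra feeding, use of oxygen and shipping of frozen plasma. Effects of site and of these conditions cannot be told apart. Both arms of miR-223 and miR-142-5p were lower at UEF than at Monash, where 75 of 751 miRNAs passed (9.99%, with 5.59% lower at UEF) and 3 of the 6 members were among them. miR-223-3p had 18343, 24501 and 57697 CPM (lowest, median, highest) in the 12 UEF rats and 27757, 44271 and 87363 in the 8 Monash rats. miR-142-5p had 147, 174 and 238 CPM at UEF and 127, 349 and 438 at Monash. For miR-142-5p the UEF rats lay in a narrow band, and most Monash rats lay above it, with the lowest Monash rat below it. The log2 fold change of UEF against Monash was −0.82 (SE 0.26, edgeR adjusted p = 0.0456) for miR-223-3p, −0.86 (SE 0.25, adjusted p = 0.0374) for miR-223-5p and −0.86 (SE 0.25, adjusted p = 0.0359) for miR-142-5p. miR-142-3p had −0.71 (SE 0.31, adjusted p = 0.133) and miR-150-3p −0.40 (SE 0.21, adjusted p = 0.237), while miR-150-5p had −0.022 (SE 0.22, adjusted p = 0.968).

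These 3 calls were close to the threshold. When single rats were removed, the adjusted p of miR-223-3p was above 0.05, at 0.0501 to 0.118, without any 1 of 14 rats: the 3 sham and 3 TBI− rats of Monash, sham rat 4, TBI− rats 1, 3 and 4 and TBI+ rat 4 of UEF, and sham rats 2 and 3 and TBI− rat 2 of UCLA. That of miR-223-5p was 0.0513 to 0.0743 without TBI− rat 3 of UEF or sham rat 1, TBI− rat 1 or TBI− rat 2 of Monash, and that of miR-142-5p was 0.0508 to 0.0625 without sham rat 1 or 2 or TBI− rat 1, 2 or 3 of Monash. Without TBI− rat 2 of UEF the adjusted p of miR-142-3p was 0.0417. In sham rats alone the log2 fold changes were −0.96 for miR-223-3p, −0.98 for miR-223-5p and −0.80 for miR-142-5p, and in injured rats alone −0.74, −0.80 and −0.86, with adjusted p from 0.133 to 0.345.

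Between UEF and UCLA the minor arm of miR-150 passed the test. Of 751 miRNAs, 70 passed (9.32%, with 4.13% lower at UEF), and miR-150-3p was the 1 member among them. It had 138, 233 and 337 CPM at UEF and 255, 384 and 459 at UCLA. The log2 fold change was −0.72 (SE 0.20, adjusted p = 0.0220 in edgeR). Without TBI+ rat 3 of UEF, or TBI+ rat 2 or 3 of UCLA, its adjusted p was 0.0526 to 0.0570. miR-150-5p, the dominant arm, had 12430, 29470 and 39769 CPM at UEF and 26484, 41288 and 60017 at UCLA, a log2 fold change of −0.63 (SE 0.21, adjusted p = 0.0505), and DESeq2 gave an adjusted p of 0.0146. In edgeR its adjusted p was 0.0347 to 0.0484 without sham rat 1, TBI− rat 1 or TBI+ rat 4 of UEF, sham rat 1 or TBI+ rat 1 of Monash, or sham rat 3 of UCLA. UCLA rats were higher for both arms, with ranges that overlapped those of UEF. The other members had log2 fold changes of −0.18 to −0.54 and adjusted p of 0.258 to 0.779.

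The differences between Monash and UCLA had opposite signs for miR-223 and miR-150, but no single member was among the 41 miRNAs (5.46%) that passed. The log2 fold change of Monash against UCLA was 0.64 (SE 0.29, edgeR adjusted p = 0.208) for miR-223-3p, 0.63 (SE 0.28, adjusted p = 0.197) for miR-223-5p and −0.60 (SE 0.23, adjusted p = 0.151) for miR-150-5p. TBI+ rat 1 of UCLA had the highest miR-223-3p of its site, 85536 CPM. Without it the log2 fold changes were 0.84 for miR-223-3p (adjusted p = 0.0293) and 0.81 for miR-223-5p (adjusted p = 0.0349). The 3 site pairs share rats, so they are not independent of each other.

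A ratio of 2 counts from the same library does not depend on scaling. The count ratio of miR-223-3p, abundant in myeloid cells and platelets, to miR-150-5p, a miRNA of lymphocytes, was compared by permutation of rats in 5 comparisons. The ratio of the miR-142 arms was compared in the same way, with p adjusted over all 10. The ratio of miR-223-3p to miR-150-5p was 2.32 times higher at Monash than at UCLA. On the log2 scale it was 0.71 ± 0.73 (SD, n = 8, from −0.34 to 2.10) at Monash and −0.50 ± 0.57 (n = 9, from −1.56 to 0.58) at UCLA, a difference of 1.22 (two-sided exact permutation p = 0.0014, adjusted p = 0.014). With each rat left out the difference was 1.02 to 1.37 and the exact adjusted p 0.00466 to 0.0315. Within sham, TBI− and TBI+ rats the Monash−UCLA difference was 1.22, 1.90 and 0.38 (two-sided exact p of 0.1, 0.1 and 0.5, where none of these can go below 0.1). UEF lay between with −0.020 ± 0.83 (n = 12). The UEF−Monash difference was −0.73 (exact adjusted p = 0.293), or −0.92 (exact adjusted p = 0.0316) without TBI− rat 2 of UEF, and the UEF−UCLA difference was 0.48 (exact adjusted p = 0.385).

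The differences of the same ratio with injury and with later epilepsy were smaller than the spread between rats. It was 0.11 ± 0.96 in injured rats (n = 19) and −0.11 ± 0.62 in sham rats (n = 10), a difference of 0.21 (permutation adjusted p = 0.674) and of 0.27, 0.24 and 0.22 at UEF, Monash and UCLA. TBI+ minus TBI− was −0.093 (exact adjusted p = 0.839), with 0.017, −0.89 and 0.63 at the 3 sites. The log2 ratio of the miR-142 arms had a mean of 5.08 ± 0.48 in injured and 4.85 ± 0.41 in sham rats (permutation adjusted p = 0.405), and the lowest adjusted p of its 5 comparisons was 0.385. Its SD was 0.64, 0.21 and 0.33 in UEF, Monash and UCLA rats, and these spreads were not tested against each other.

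**Figure D3:**
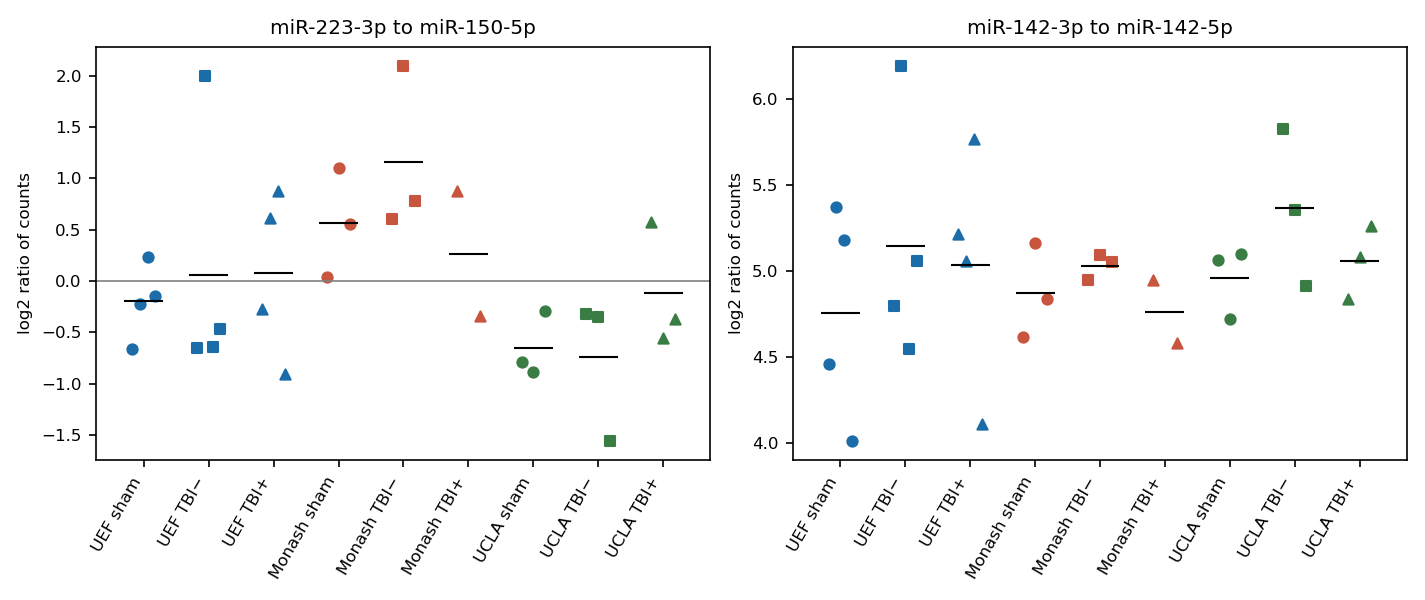
Log2 ratio of counts in each rat by site and outcome, with group means as lines, for miR-223-3p to miR-150-5p (left) and for the arms of miR-142 (right). All 9 UCLA rats but 1 lie below 0 in the left panel, and 7 of 8 Monash rats lie above it.

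The members fell into correlated sets from rat to rat. Over 29 rats, with log2 CPM and 15 pairs adjusted together, the arms of miR-223 had Pearson's r = 0.958 and Spearman's rho = 0.929, those of miR-150 had r = 0.869 and rho = 0.849, and those of miR-142 r = 0.773 and rho = 0.699. For the first 2 pairs every permutation p was 1e-05, the smallest that 100000 resamples can give, with adjusted p of 3e-05 for r and 3.75e-05 for rho. For the arms of miR-142 the permutation p was 1e-05 for r (adjusted 3e-05) and 9e-05 for rho (adjusted 0.00027). Without the 2 rats farthest from the median, r was 0.941, 0.828 and 0.704. Arms of a hairpin share their precursor, and all points share the scaling of their library.

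Between hairpins, miR-223-3p and miR-142-3p varied together (r = 0.794, permutation p = 1e-05, adjusted 3e-05; rho = 0.824, permutation p = 1e-05, adjusted 3.75e-05; r = 0.786 without 2 rats), and within UEF, Monash and UCLA r was 0.782, 0.724 and 0.868. For miR-150-5p both values were near 0. Its r was −0.054 with miR-223-3p (permutation p = 0.779, adjusted 0.896; rho = −0.038, p = 0.843, adjusted 0.843; r = −0.11 without 2 rats) and 0.055 with miR-142-3p (permutation p = 0.777, adjusted 0.896; rho = 0.086, p = 0.657, adjusted 0.758; r = −0.028 without 2 rats). Within UEF, Monash and UCLA its r with miR-223-3p was −0.29, −0.025 and 0.46, and with miR-142-3p −0.62, 0.33 and 0.31. With scaling by library totals alone the r of miR-223-3p and miR-150-5p was 0.30 (permutation adjusted p = 0.193).

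At UEF the TMM-scaled levels of the miR-142 arms showed no correlation. There r was −0.066 and rho 0.042 (permutation p of r = 0.841, adjusted over 18 within-site values 0.891), against r = 0.962 at Monash (exact permutation p = 0.00067, adjusted 0.00201) and r = 0.900 at UCLA (exact permutation p = 0.000592, adjusted 0.00201). The 12 UEF rats ran from 3021 to 12682 CPM for miR-142-3p but only from 147 to 238 CPM for miR-142-5p. With each UEF rat left out, r was −0.13 to 0.12. Arms of miR-223 and miR-150 had r of 0.959 and 0.930 at UEF. The difference of the correlation between sites was not tested. By library totals sham rat 3 of UEF was the lowest of its site for both miR-142 arms (2312 and 63.8 CPM). The r within UEF was not computed with that scaling.

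**Figure D4:**
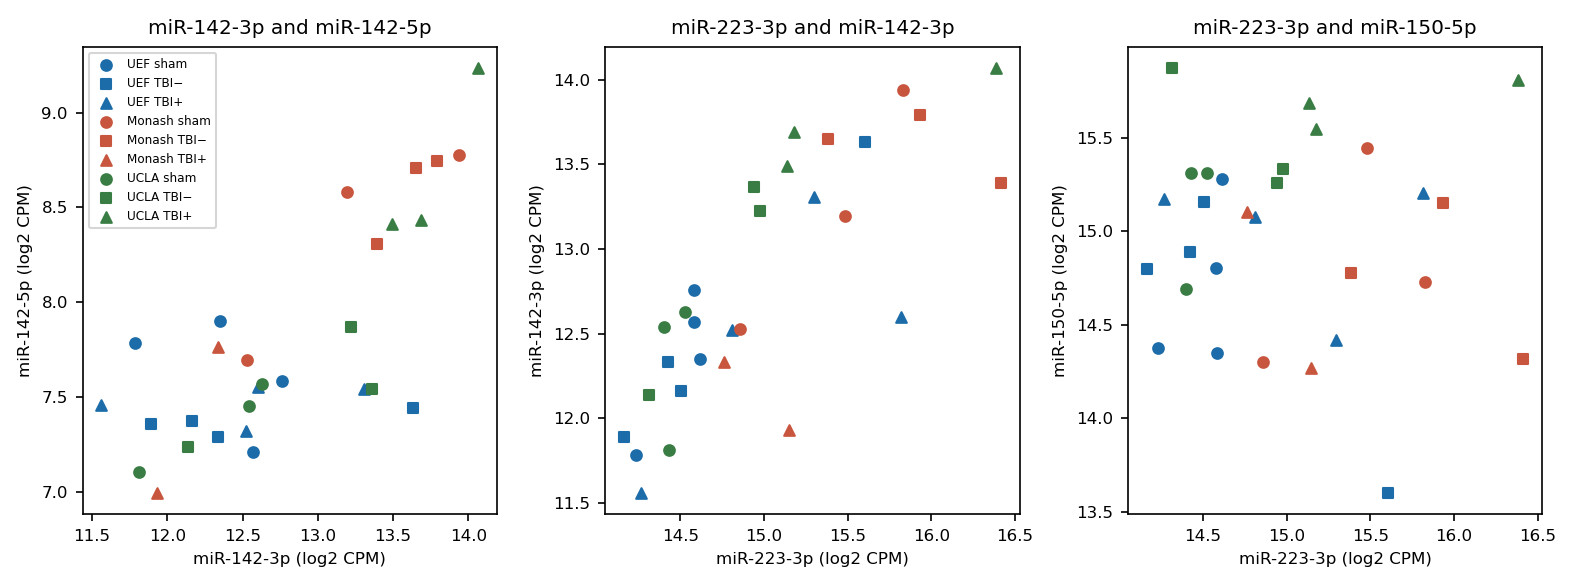
Log2 CPM of 3 pairs of members in the 29 rats, coloured by site, with symbols for outcome. UEF rats form a flat band in the panel of the miR-142 arms, miR-223-3p and miR-142-3p rise together (r = 0.794), and miR-223-3p and miR-150-5p show no trend (r = −0.054).

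Of the 588 miRNAs that reached 10 counts in all rats, those most like each member over the 29 rats are named as a description by Spearman's rho. Closest to miR-223-3p were miR-223-5p (0.929), miR-142-3p (0.824) and miR-363-3p (0.798), and closest to miR-223-5p were miR-223-3p, miR-142-3p (0.818) and miR-144-5p (0.799). miR-142-3p was most like miR-191a-3p (0.931), miR-20a-5p (0.919) and let-7i-5p (0.911). miR-142-5p was most like miR-19a-3p (0.759), miR-210-5p (0.733) and miR-363-3p (0.728). The list of miR-142-5p does not hold miR-142-3p. Closest to miR-150-5p were miR-342-3p (0.887), miR-150-3p (0.849) and miR-187-3p (0.644), and closest to miR-150-3p were miR-150-5p, miR-342-3p (0.846) and miR-1306-5p (0.694).

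Other miRNAs of white cells and platelets were counted from fixed lists. Of 8 other white cell miRNAs, 3 were lower at UEF than at UCLA in edgeR, beside 4.13% of all 751 miRNAs. None passed in the other 4 comparisons, where 3 of 8 had an unadjusted p under 0.05 between UEF and Monash (beside 204 of 751 miRNAs) and 0 in the rest, and DESeq2 was not summed over lists. These were miR-181b-5p (log2 fold change −0.80, adjusted p = 0.0152), miR-155-5p (−0.75, adjusted p = 0.0234), a miRNA of activated lymphocytes and macrophages, and miR-181a-5p (−0.62, adjusted p = 0.0336), a regulator of lymphocyte development. The median log2 fold change of the list in that comparison was −0.49, beside 0.07 over all 751 miRNAs. Their summed level was 15234, 28092 and 39319 CPM at UEF (lowest, median, highest) and 24757, 31313 and 51423 at UCLA. Of the 12 other platelet miRNAs with a row, 1 passed between UEF and UCLA, a share near the 9.32% of all miRNAs called there, and none in the other 4 comparisons, where 1 had an unadjusted p under 0.05 with injury, 1 between Monash and UCLA and 0 in the rest. It was miR-199a-5p, higher at UEF (log2 fold change 0.92, adjusted p = 0.0329). The platelet list had a median log2 fold change of 0.0020 with injury and 0.16 between UEF and UCLA.

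Of the members, miR-142-3p alone passed the test of r against the red cell ratio, a relation that was added after the data were seen, and it did not pass by rho. Over 29 rats, with p adjusted over 8 measures, the log2 ratio of miR-451-5p to miR-23a-3p had r = 0.499 with miR-142-3p (permutation p = 0.00589, adjusted 0.0236), with rho = 0.418 (p = 0.0244, adjusted 0.106) and r = 0.437 without 2 rats. Within sites that r was 0.526, 0.474 and 0.701 at UEF, Monash and UCLA. The ratio of the miR-142 arms had r = 0.569 (permutation p = 0.00122, adjusted 0.00976), with rho = 0.388 (p = 0.0398, adjusted 0.106), and r = 0.343 without the 2 rats farthest from the median red cell ratio, so the relation was weaker without them. Its r was 0.583, 0.439 and 0.641 within UEF, Monash and UCLA. For miR-223-5p r was 0.380 (permutation p = 0.0421, adjusted 0.112; rho = 0.390, p = 0.0368, adjusted 0.106; r = 0.339 without 2 rats), and 0.438, 0.451 and 0.665 within UEF, Monash and UCLA. For miR-223-3p r was 0.327 (permutation p = 0.0845, adjusted 0.169; rho = 0.327, p = 0.0855, adjusted 0.171), and for miR-150-5p it was 0.039 (permutation p = 0.841, adjusted 0.897; rho = 0.159, p = 0.409, adjusted 0.559). The 5p arm of miR-142 had r = 0.169 (permutation p = 0.382, adjusted 0.509), with −0.30, 0.40 and 0.46 within UEF, Monash and UCLA. The value of miR-150-3p was r = 0.025 (permutation p = 0.897, adjusted 0.897).

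**Figure D5:**
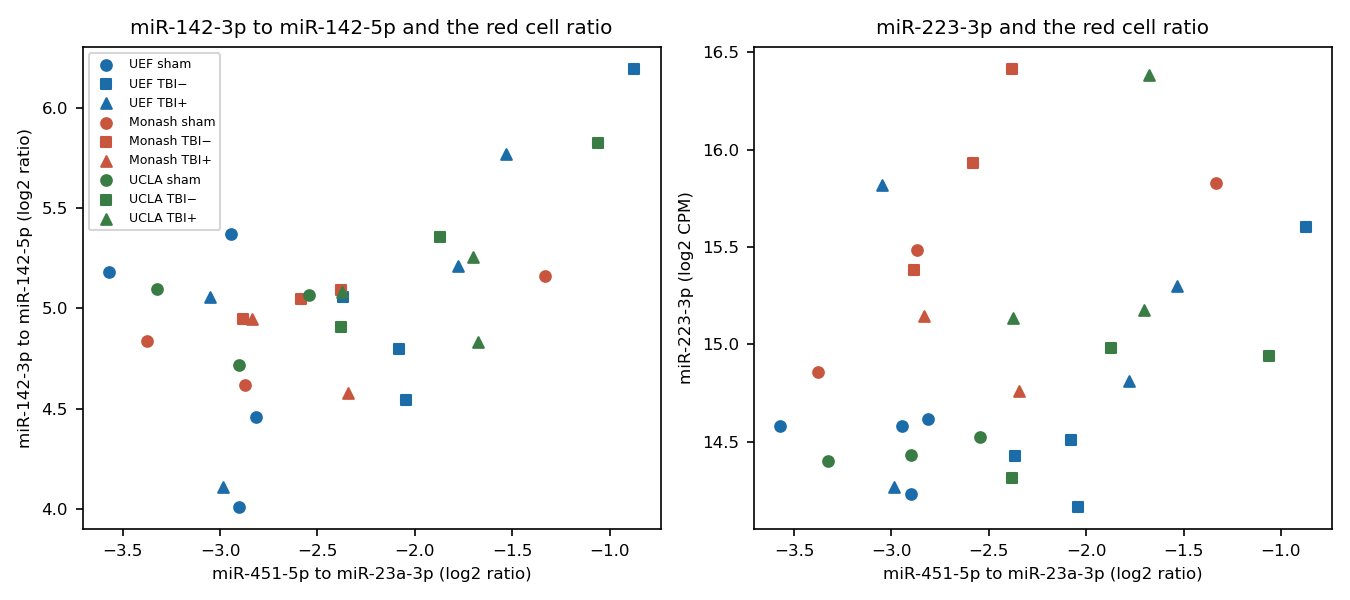
The log2 ratio of the miR-142 arms (left) and the log2 CPM of miR-223-3p (right) against the log2 ratio of miR-451-5p to miR-23a-3p in the 29 rats, by site and outcome. The 2 rats with the highest arm ratio, TBI− rat 2 of UEF and TBI− rat 1 of UCLA, also have the highest red cell ratio.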

How the data were processed

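Small RNA of 200 μl plasma was sequenced from 29 rats. Per the labels and the study's methods, the authors used a library kit with molecular identifiers, removed adapters with cutadapt, aligned with Bowtie against Rnor_6.0 and named miRNAs by miRBase. The authors deposited whole-number counts of 754 miRNAs per rat without normalization, and whether reads of 1 molecule were merged is not given in the sources used here. All columns of the table were used.

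Counts were tested with edgeR 4.0.16 (quasi-likelihood F test in R 4.3.3, site and outcome as terms, TMM, low counts removed by filterByExpr at a minimum of 10, Benjamini-Hochberg adjustment over 751 miRNAs, threshold 0.05). log2 CPM had a prior count of 2. Scripts were tested on simulated data. Count ratios and correlations used two-sided permutation, by full enumeration (exact) in the smaller sets of rats and with 100000 resamples in the larger (scipy 1.17.1). Named are all members, for each the 3 most like miRNAs, and list members past the threshold (at most 4 a comparison). Members and lists were chosen with earlier results of these data known. Alternatives were DESeq2 1.42.0, other scalings, no count filter, the red cell ratio as a covariate, models without site, sham or injured rats alone, a replicate block and each rat left out. Each library is 1 rat, and depth limits the minor arms (154 counts at the lowest).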

Additional observations from a re-analysis of the deposited data

Results flagged for a closer look

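A gap test at the 95% level marked 11 values that stood apart in 64 groups of 4 to 10 rats, where chance marks about 1 in 20 groups. TBI+ rat 1 of UCLA stood above the other UCLA rats for miR-223-3p (85536 CPM), miR-223-5p (441 CPM) and miR-142-5p (602 CPM), and above the other TBI+ rats for miR-142-5p with the same value. TBI− rat 2 of UEF stood above the other TBI− rats of its site for miR-223-3p (49763 CPM), miR-142-3p (12682 CPM) and the log2 ratio of miR-223-3p to miR-150-5p (2.00). Sham rat 2 of Monash stood above the other sham rats for miR-142-3p (15680 CPM). Values below the others of their group were those of sham rat 4 of UEF for miR-223-3p (19248 CPM), sham rat 3 of UCLA for miR-150-3p (255 CPM) and TBI+ rat 3 of UEF for miR-150-3p (152 CPM).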

How the results depend on the processing

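The cause of the changes below was not tested, and the fits on sham or injured rats alone also use fewer rats. Members lower at UEF than at Monash kept that direction in every alternative run but not their call: relative to miR-28-3p the log2 fold change was −0.79 for miR-223-3p (adjusted p = 0.0918), −0.83 for miR-223-5p (0.0631) and −0.71 for miR-142-5p (0.145), in sham rats alone −0.96, −0.98 and −0.80, and in injured rats alone −0.74, −0.80 and −0.86. Replicate numbers did not pair the rats (of 103 same-numbered pairs 21 had deviations correlated over 0.1, median −0.0047), and as a replicate block they gave −0.67 (adjusted p = 0.156), −0.71 (0.125) and −0.86 (0.0788). For miR-142-3p library totals alone gave −0.82 (0.0279). Between UEF and UCLA miR-150-3p lost its call with library totals (−0.66), relative to miR-28-3p (−0.64), in sham rats alone (−0.64) and in injured rats alone (−0.71), and miR-150-5p passed with RLE size factors (−0.66), the red cell covariate (−0.66) and DESeq2 (−0.66).

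Signs turned in differences that passed no test. After injury these were miR-142-3p (−0.019) and miR-142-5p (−0.021) with the red cell covariate and miR-150-3p with RLE and DESeq2 (−0.0057 and −0.0056). Between TBI+ and TBI− they were miR-223-5p without a site term (−0.0098), miR-150-3p with upper-quartile factors (−0.020), and miR-142-3p with RLE (0.030), library totals (0.041), miR-28-3p (0.11), the covariate (0.084) and DESeq2 (0.030). Scaling to miR-28-3p moved the median of all miRNAs in this comparison from −0.0020 to 0.14. Between UEF and Monash it was miR-150-5p relative to miR-28-3p (0.10) and in injured rats alone (0.078). In sham rats alone, UEF against UCLA turned for miR-223-3p (0.035), miR-142-3p (0.014) and miR-142-5p (0.24), and Monash against UCLA for miR-150-3p (0.058), and in injured rats alone for miR-142-3p (−0.25). As a difference of medians, the arm ratio of miR-142 turned between TBI+ and TBI− (0.0040), and the ratio of miR-223-3p to miR-150-5p with injury (−0.14) and later epilepsy (0.069). The r of miR-150-5p was 0.30 with miR-223-3p and 0.30 with miR-223-5p by library totals, and 0.26 with each relative to miR-28-3p. The r of miR-142-5p with both arms of miR-150 passed the threshold by library totals and relative to miR-28-3p. With miR-150-5p it was 0.28 in the main run (permutation adjusted p = 0.240), then 0.55 (0.00457) and 0.52 (0.00861). With miR-150-3p it was 0.41 in the main run (permutation adjusted p = 0.0518), then 0.63 (0.000487) and 0.60 (0.00131). After removal of site and outcome r was −0.12 for miR-223-3p and −0.036 for miR-223-5p with miR-150-3p, and −0.11 and −0.017 for miR-142-3p with miR-150-5p and miR-150-3p.

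Counts of miRNAs past the threshold moved more. With injury (9) they were 4 with the covariate, 5 with the block, 15 without site and 24 in DESeq2, and 1 to 16 with each rat left out, outside 1.5 times without sham rats 2, 3 or 4 of UEF, 2 of Monash or 1 of UCLA. Between UEF and Monash (75) they were 46 with upper-quartile factors, 33 with library totals (9 higher, 24 lower, against 33 and 42), 18 relative to miR-28-3p, 31 with the block, 35 in sham and 0 in injured rats alone (edgeR, 103 at an unadjusted p under 0.05, DESeq2 not run), and 39 to 117 with each rat left out. Between UEF and UCLA (70) they were 46 with the block and 36 and 40 in sham and injured rats alone, and library totals gave 35 higher and 42 lower against 39 and 31. Between Monash and UCLA (41) they were 21 and 23 in sham and injured rats alone, and 25 to 59 with each rat left out, the lowest without sham rat 3 of Monash. For the interaction (8) they were 2 with RLE, 5 with upper-quartile factors, 15 with library totals, 17 in DESeq2, 0 with the covariate and 0 with the block in edgeR, and 0 to 10 with each rat left out.

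With each rat left out, log2 fold changes after injury were −0.037 to 0.13 for miR-150-3p. Between TBI+ and TBI− they were −0.12 to 0.18 for miR-142-3p and −0.044 to 0.13 for miR-150-3p, and the ratio of miR-223-3p to miR-150-5p was −0.28 to 0.12. Between UEF and Monash they were −0.97 to −0.67 for miR-223-3p, −0.99 to −0.75 for miR-223-5p, −0.91 to −0.55 for miR-142-3p, −1.02 to −0.78 for miR-142-5p and −0.13 to 0.12 for miR-150-5p, with −0.034 to 0.16 for the arm ratio of miR-142 and −0.92 to −0.53 for miR-223-3p to miR-150-5p. Between UEF and UCLA they were −0.29 to 0.023 for miR-223-3p, −0.70 to −0.54 for miR-150-5p and −0.79 to −0.65 for miR-150-3p, and between Monash and UCLA 0.49 to 0.84 for miR-223-3p and 0.51 to 0.81 for miR-223-5p. Of 1380 member values over all alternatives 1276 kept their direction and their side of the threshold. Most of these belong to differences that passed no test in the main run. The call of miR-223-3p between UEF and Monash was lost in 14 of 29 runs with a rat left out. The ratio of miR-223-3p to miR-150-5p between Monash and UCLA kept both in every alternative run.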
